A study of Mus musculus with 32 samples.

Results

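In all, 9 genes of the BCL2 family were followed by ChIP-seq in B3 mouse pre-B cells: the anti-apoptotic genes Bcl2, Bcl2l1 (BCL-XL) and Mcl1, the effectors Bax and Bak1, and the BH3-only genes Bcl2l11 (BIM), Bbc3 (PUMA), Pmaip1 (NOXA) and Bmf. Every Ikaros, CHD4 and H3K27ac peak within 100 kb of the transcription start of each gene (mm10) was taken, whatever its height. Overlapping peaks from the 8 lists of each target were joined into regions. This gave 94 of 23856 Ikaros regions, 53 of 15358 CHD4 regions and 112 of 39309 H3K27ac regions, or 259 of 78523 in all. An Ikaros region 77.3 kb downstream of the Bcl2l11 start was named in advance because it was new at 2 h, so its Ikaros values are given without a test.

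The BCL2 family decides whether the outer mitochondrial membrane is permeabilised. BAX and BAK1 form the pores, the anti-apoptotic proteins hold them in check, and the BH3-only proteins relieve that check or activate the effectors. In developing B cells this balance sets how many pre-B cells survive: MCL1 and BCL-XL are known survival factors at this stage, and BIM is a known mediator of the death of B-lineage cells. Ikaros (IKZF1) is a zinc-finger transcription factor of lymphoid development and a tumour suppressor in B-cell leukaemia. CHD4 is the remodelling ATPase of the NuRD complex, and H3K27ac marks active promoters and enhancers.

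All libraries came from 1 cell line, B3, transduced by retrovirus with an HA-tagged Ikaros-ERt2 fusion that enters the nucleus when 4-hydroxytamoxifen (4-OHT) is added. Cells were collected untreated (0 h) or after 30 min, 1 h or 2 h of 500 nM 4-OHT, and every group, 0 h included, carried the fusion. At each time 2 replicates were mapped with anti-HA beads, an anti-CHD4 antibody or an anti-H3K27ac antibody, which gave 8 libraries per target and 24 peak lists. The labels do not say whether replicates were separate cultures, so p-values measure only the spread between these libraries. No library of 4-OHT-treated cells without the fusion was analysed here, so the drug and nuclear Ikaros cannot be told apart.

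The Ikaros libraries held a mean of 1.982 to 3.593 fragments per base and the H3K27ac libraries 3.748 to 4.34. For CHD4 the depth is unknown, since broad peaks carry averages. The 2 Ikaros libraries at 0 h were the deepest (3.593 and 3.129), and replicate 2 at 30 min was the shallowest and had the fewest peaks (5373, against 7822 to 14874 in the others). The weakest peak called held 13 fragments in both 0 h Ikaros lists and 9 to 11 in the later ones, so a missing peak means a signal too weak to be called there, not an unbound site. The pre-B label was checked by H3K27ac at gene starts: all 9 B-lineage markers had a peak in both 2 h lists and 8 of them in all 8 lists, with Rag1 in 1 list at 0 h. None of 4 T-cell and 2 fibroblast markers had one in any list, and of 4 myeloid markers only Lyz2 did, in 1 list. The B-lineage markers Vpreb1 and Igll1 had identical H3K27ac values, so 1 region appears to stand behind both.

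The sequences under 5 Ikaros regions are shown because 4 of them were bound in both 2 h lists and in neither 0 h list, and the fifth, downstream of Bbc3, was the Ikaros region near that gene with the highest mean rank of fold over the 8 lists. Each is 151 bases of the mm10 plus strand centred on the summit of the strongest 2 h peak. Capitals mark the word GGAA and the word GGGA, read on either strand, letters found at the heart of Ikaros and ETS-family sites, and both words overlap where GGGAA is printed. The windows are chr2:128204112-128204262 for Bcl2l11, chr2:152815985-152816135 for Bcl2l1, chr17:27056363-27056513 for Bak1, chr3:95659587-95659737 for Mcl1 and chr7:16399845-16399995 for Bbc3.
Bcl2l11 downstream: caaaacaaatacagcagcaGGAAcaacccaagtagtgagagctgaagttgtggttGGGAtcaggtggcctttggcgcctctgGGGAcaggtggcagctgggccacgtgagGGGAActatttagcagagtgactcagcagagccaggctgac
Bcl2l1 intron: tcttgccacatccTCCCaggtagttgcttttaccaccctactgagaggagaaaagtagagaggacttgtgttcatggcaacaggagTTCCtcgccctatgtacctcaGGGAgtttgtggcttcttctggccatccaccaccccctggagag
Bak1 upstream: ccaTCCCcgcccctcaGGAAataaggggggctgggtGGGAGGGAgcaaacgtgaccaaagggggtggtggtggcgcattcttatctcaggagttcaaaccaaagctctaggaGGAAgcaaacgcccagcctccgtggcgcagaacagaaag
Mcl1 intron: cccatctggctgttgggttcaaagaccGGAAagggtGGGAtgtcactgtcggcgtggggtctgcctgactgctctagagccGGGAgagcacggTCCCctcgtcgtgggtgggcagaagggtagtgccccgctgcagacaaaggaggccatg
Bbc3 downstream: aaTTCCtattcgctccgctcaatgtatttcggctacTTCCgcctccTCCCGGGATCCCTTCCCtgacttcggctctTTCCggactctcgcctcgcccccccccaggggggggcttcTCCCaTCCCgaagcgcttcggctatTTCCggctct
The Bcl2l11 window held 5 words, the Bcl2l1 window 3, the Bak1 window 5, the Mcl1 window 4 and the Bbc3 window 11. Over 28404 summits of the 2 h lists the median was 4 words per window, 97.6% of windows held at least 1, and 1.4% held 11 or more. The words are short, so their presence is a description and not a mapped site. The longer form TGGGAA, on either strand, stood in 2 of 24 windows near these genes and in 17.2% of all windows. It was in none of the 5 printed here, and the gained region 89.1 kb downstream of Bak1 held 0 words. The 24 windows were at Ikaros regions with a 2 h peak that lay at promoters, were gained or had the highest mean rank. None of them was at Pmaip1, whose windows were not read.

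The 9 genes had more regions around them than the median protein-coding gene. Within 100 kb, Ikaros regions numbered 6 at Bcl2, 12 at Bcl2l1, 9 at Mcl1, 17 at Bax, 13 at Bak1, 6 at Bcl2l11, 11 at Bbc3, 10 at Pmaip1 and 10 at Bmf, against a median of 3 over 21911 genes. CHD4 regions numbered 2 at Bcl2 to 12 at Bbc3 (median of all genes 1), and H3K27ac regions 5 at Bcl2 to 19 at Bbc3 (median 4). Of the 94 Ikaros regions 88.3% overlapped an H3K27ac region and 58.5% a CHD4 region, close to the 87.4% and 54.6% of all Ikaros regions. Many regions lay nearer to another gene: the BCL2 family gene itself had the nearest protein-coding start for 38 of the 94 Ikaros, 27 of the 53 CHD4 and 50 of the 112 H3K27ac regions.

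**Figure D1:**
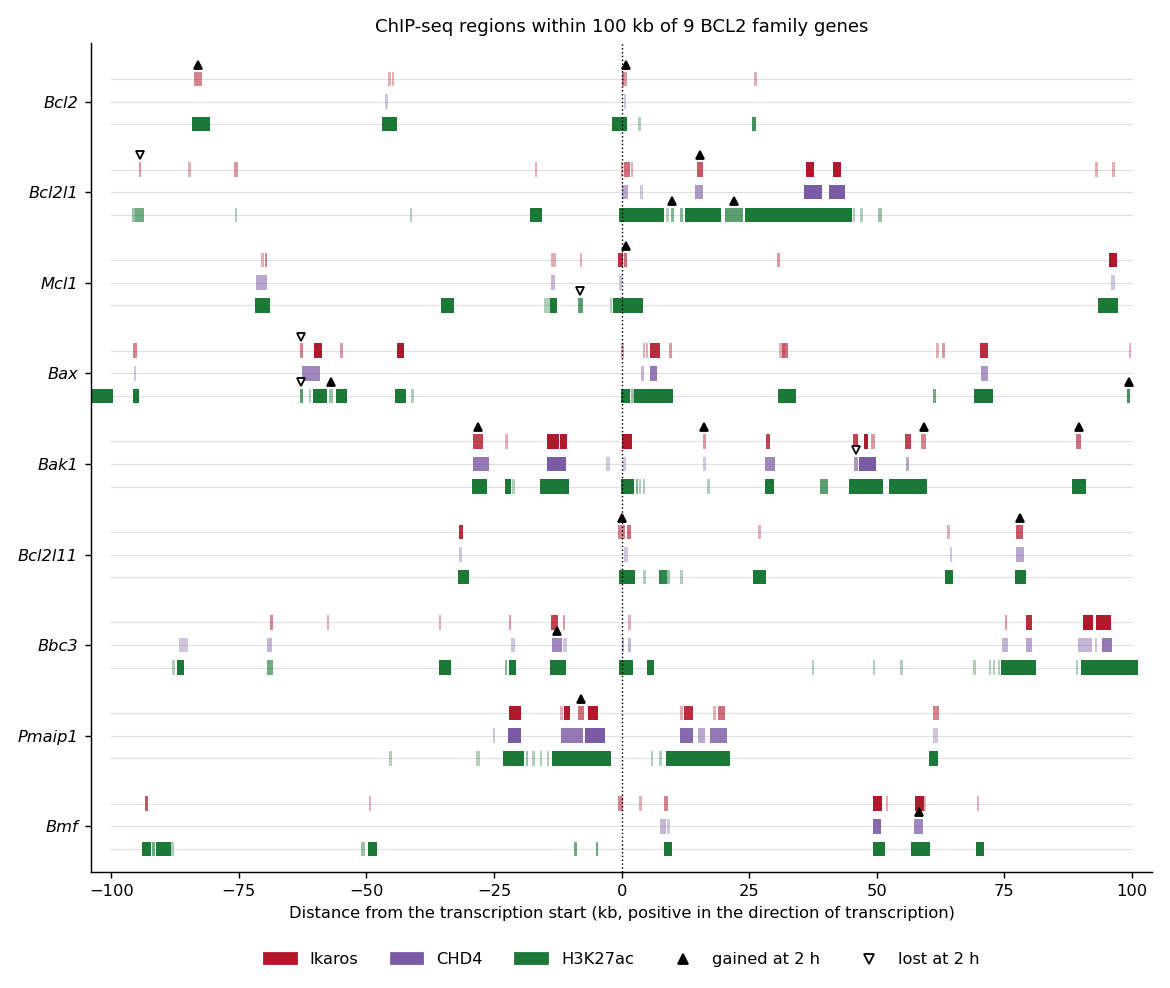
Regions of the 3 targets by distance from the transcription start (kb, positive in the direction of transcription), 1 row of 3 tracks per gene; darker boxes were called in more of the 8 lists, filled triangles mark regions gained at 2 h and open triangles regions lost. The 11 gained Ikaros regions lie at 6 of the 9 genes, with 4 at Bak1.

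Ikaros was gained at 11 of the 94 regions, that is, called in both 2 h lists and neither 0 h list (11.7%). Over all Ikaros regions 12.0% were gained, so the share near the BCL2 family genes was close to the background. With lists cut to equal length it was not: 8 of 47 regions near these genes were gained (17.02%), against 7.632% of all. Without the Bcl2l11 region that was chosen as new at 2 h the counts were 10 of 93 (10.8%) and, with equal lengths, 7 of 46 (15.2%). None of these shares was tested. The gained regions were 2 at Bcl2, 1 at Bcl2l1, 1 at Mcl1, 4 at Bak1, 2 at Bcl2l11 and 1 at Pmaip1, with none at Bax, Bbc3 or Bmf. In turn, 2 regions were lost (2.13%, against 3.59% of all regions), 94.2 kb upstream of Bcl2l1 and 62.6 kb upstream of Bax. Of the 11 gained regions 10 overlapped H3K27ac and 7 overlapped CHD4, against 93.7% and 71.8% of all gained Ikaros regions (9 and 6 of 10 without the chosen region).

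**Figure D2:**
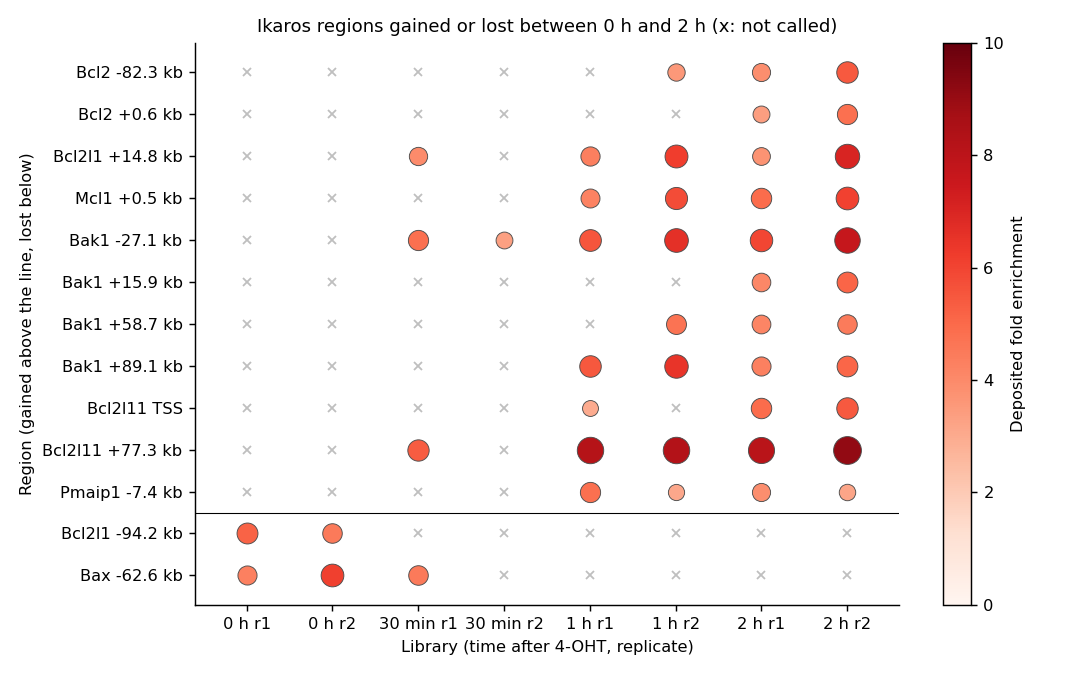
Deposited fold enrichment of Ikaros (circle area and colour) in each of the 8 libraries at the 11 regions gained and the 2 lost between 0 h and 2 h; a cross means that the library's list held no peak there. The Bcl2l11 region 77.3 kb downstream, chosen as new at 2 h, has folds of 8.05 to 9.13 at 1 h and 2 h, and only 3 of the gained regions have any peak at 30 min.

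For CHD4, 2 of 53 regions were gained (3.77%, against 5.30% of all) and 1 was lost (1.89%, against 1.45%). With lists of equal length 3 of 28 CHD4 regions were gained (10.71%, against 2.464% of all). For H3K27ac, 4 of 112 regions were gained (3.57%, against 3.73%) and 2 were lost (1.79%, against 2.78%). The shares were read against the background only and not tested.

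The level was then compared between 2 h and 0 h at regions called in all 8 lists of a target, with limma on the log2 of the deposited fold enrichment (pileup over local background), each library centred on its median, and adjustment over all regions of the target. No region near the 9 genes passed an adjusted p of 0.05. For Ikaros 0 of 16 regions passed, against 5.90% of all 2305 regions, and 2 had an unadjusted p under 0.05, against 20.3% of all. For CHD4 0 of 6 passed, against 0.553% of all 723, and 0 had an unadjusted p under 0.05, against 7.3% of all (lowest adjusted p by limma 0.927). For H3K27ac 0 of 54 passed, with 6 at an unadjusted p under 0.05, against 0.408% of all 14716 called and 15.9% with an unadjusted p under 0.05.

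The local background enters the deposited fold and differed between libraries, so the number of fragments at the summit was recovered from fold and p and compared over library coverage, again centred on each library's median. This measure was chosen after the data had been seen. With limma on it, 3 of 16 Ikaros regions passed (20.1% of all 2294) and 15 of 54 H3K27ac regions passed (27.8%, against 21.7% of all 14712), 10 of them higher and 5 lower at 2 h. The directions for H3K27ac are relative to the library median: without centring the median of all regions was -0.41 on the log2 scale at 2 h against 0 h, and of the 54 regions then 0 were higher and 19 lower. Over all regions the calls were 1978 higher and 1211 lower with centring, 1522 and 1485 with quantile normalisation, and 132 and 4090 without centring. Of the 15 regions, 4 passed whichever 1 of the 8 libraries was left out: 2 at Bcl2l1, 1 at Bcl2l11 and 1 at Bax. The number that passed was 4 without replicate 1 at 0 h, 5 without replicate 2 at 0 h, 6 without replicate 1 at 2 h and 7 without replicate 2 at 2 h. Over all H3K27ac regions the share that passed was 9.60%, 9.86%, 12.8% and 16.5% in the same fits.

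**Figure D3:**
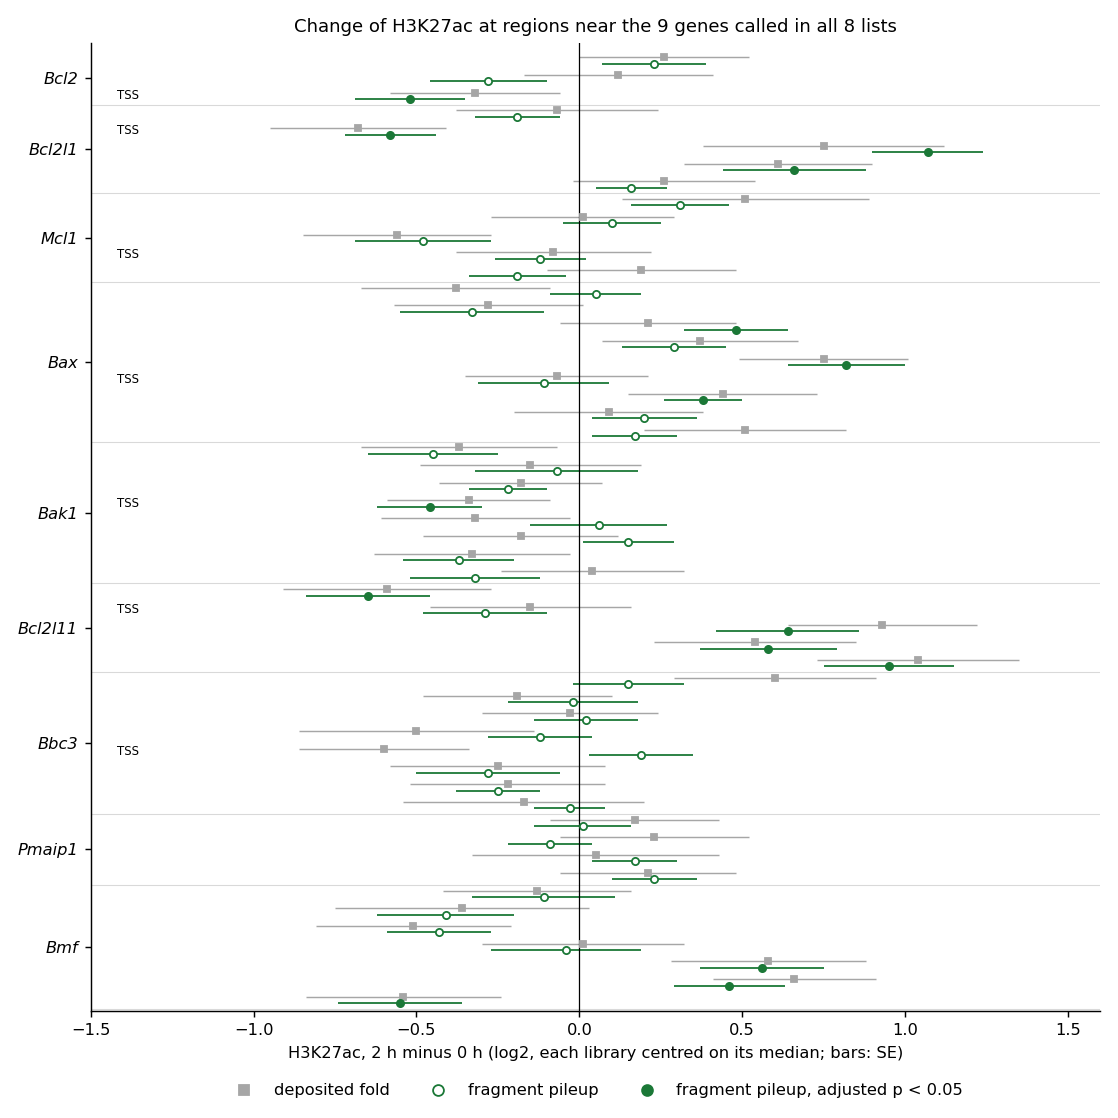
Change of H3K27ac (log2, 2 h minus 0 h, each library centred on its median, bars SE) at the 54 regions called in all 8 lists, ordered within each gene by distance; grey squares use the deposited fold and green circles the fragment pileup, filled where the adjusted p was under 0.05. No grey square passed the test, and 15 circles are filled, 10 to the right and 5 to the left of 0, whereas without centring 0 were higher and 19 lower.

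Among the anti-apoptotic genes, Bcl2l1 gave the largest differences in H3K27ac, with the mark lower at its promoter and, relative to the library median, higher inside the gene in the fragment pileup. Bcl2l1 (ENSMUSG00000007659.18, chromosome 2 from 152780668 to 152831728, minus strand) encodes BCL-XL. Its promoter region (152823477 to 152832149) held 159 and 144 H3K27ac fragments at 0 h, 123 and 83 at 30 min, 102 and 77 at 1 h and 65 and 72 at 2 h. Both 0 h libraries stood above all later ones, and the groups at 0 h and 2 h did not overlap. The change was -0.58 in the fragment pileup (SE 0.14, adjusted p = 0.00413, limma) and -0.68 in the deposited fold (SE 0.27, adjusted p = 0.233, limma). Uncentred it was -1.05.

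The intronic region 12.4 kb downstream of the Bcl2l1 start (152812201 to 152819286) went the other way. It held 54 and 58 H3K27ac fragments at 0 h, 82 and 87 at 30 min, 97 and 82 at 1 h and 93 and 70 at 2 h. All 6 later libraries stood above both 0 h libraries. The fragment pileup change was 1.07 (SE 0.17, adjusted p = 0.000123, limma). It was 0.60 and did not pass without centring (adjusted p = 0.0559, limma), and the deposited fold gave 0.75 (SE 0.37, adjusted p = 0.34). A second intronic region 24.2 kb downstream changed by 0.66 in the fragment pileup (SE 0.22, adjusted p = 0.0374, limma). It was 0.19 without centring (adjusted p = 0.564, limma) and missed the threshold without either library at 0 h or at 2 h (adjusted p up to 0.172). In addition, 2 weak H3K27ac regions 9.6 and 20.3 kb downstream were gained, with folds of 2.7 to 4.16 at 2 h.

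Ikaros was gained within that same 12.4 kb H3K27ac region of Bcl2l1, 14.8 kb downstream of the start (152815705 to 152816886), the second sequence printed above. Its folds were 3.96 in replicate 1 at 30 min, 4.36 and 6.19 at 1 h and 3.73 and 7.04 at 2 h. At the Bcl2l1 promoter Ikaros was called in 1 list at 0 h (fold 3.3) and in both at 2 h (4.57 and 5.62), so it did not count as gained. The Ikaros region of highest mean rank, 41.4 kb downstream in an intron, was called in all 8 lists at folds of 4.05 to 14.34 and differed by -0.57 (SE 0.38, adjusted p = 0.422, limma). Single libraries decided that value, which was 0.12 without replicate 1 at 2 h and -1.25 without replicate 2 at 2 h (adjusted p = 0.926 and 0.153, limma). The fragment pileup gave -0.64 (adjusted p = 0.0885, limma) and passed without replicate 2 at 2 h (-1.13, adjusted p = 0.0157, limma).

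Bcl2 (ENSMUSG00000057329.7, chromosome 1 from 106538178 to 106714274, minus strand), the founding member of the family, had 2 gained Ikaros regions. One lay in the UTR 550 bp from the start (106713163 to 106713724), with 12 and 17 fragments and folds of 3.38 and 4.82 at 2 h and no peak at earlier times. The other lay 82.3 kb upstream, close to the start of Vps4b, with folds of 3.56 in replicate 2 at 1 h and of 3.9 and 5.44 at 2 h. A further Ikaros region, 14 bp from the start, was called in 4 lists from 30 min on at folds of 3.38 to 5.11. The 12 fragments in 1 of the 2 h lists were below the 13 of the weakest peak called at 0 h.

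H3K27ac at the Bcl2 promoter was 83 and 85 fragments at 0 h, 75 and 72 at 30 min, 71 and 51 at 1 h and 35 and 44 at 2 h. The 2 h libraries stood below all others. The fragment pileup change was -0.52 (SE 0.17, adjusted p = 0.0285, limma), and the deposited fold gave -0.32 (SE 0.26, adjusted p = 0.591). The regions 44.1 and 80.7 kb upstream did not pass (-0.28 and 0.23 in the fragment pileup). Without centring the first passed at -0.75 (adjusted p = 0.0176, limma), and the other was -0.25 and did not (adjusted p = 0.452, limma).

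Mcl1 (ENSMUSG00000038612.16, chromosome 3 from 95658788 to 95663176, plus strand), a short-lived survival protein, had an Ikaros peak at its start in both 0 h lists. Those peaks were weak, at percentiles 1.5 and 14.9 of the folds of their lists, and no library without the tag was analysed here. The region over the start (95658133 to 95659092) had folds of 2.69 and 3.82 at 0 h, 3.13 in replicate 1 at 30 min, 5.31 and 7.17 at 1 h and 7.01 and 8.04 at 2 h. All 4 values at 1 h and 2 h stood above those at 0 h, but replicate 2 at 30 min had no peak and the region was not tested. A neighbouring region in the intron, 535 bp from the start, was gained, with folds of 4.25 and 5.79 at 1 h and 4.94 and 6.09 at 2 h. H3K27ac at the Mcl1 promoter held 160 and 148 fragments at 0 h, 175 and 124 at 30 min, 187 and 99 at 1 h and 90 and 103 at 2 h, and the fragment pileup change of -0.12 did not pass (SE 0.14, adjusted p = 0.596, limma). A single H3K27ac region 7.6 kb upstream was lost, with folds of 5.5 and 6.88 at 0 h, 3.09 to 3.47 in 3 lists between, and none at 2 h.

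Of the effectors, Bak1 had the most gained Ikaros regions and Bax none. Bak1 (ENSMUSG00000057789.14, chromosome 17 from 27019810 to 27029009, minus strand) has its promoter inside the annotated Ggnbp1 gene, which runs on the other strand, so values there cannot be given to one gene alone. Ikaros at the Bak1 promoter had folds of 3.42 and 3.65 at 0 h, 4.34 and 3.69 at 30 min, 6.53 and 5.88 at 1 h and 7.79 and 5.78 at 2 h. All 4 values at 1 h and 2 h stood above those at 0 h and 30 min, with a change of 1.01 that did not pass (SE 0.34, adjusted p = 0.0668, limma). This was the lowest adjusted p of the 16 Ikaros regions near the 9 genes, and the fragment pileup gave 0.67 (SE 0.26, adjusted p = 0.068, limma). With single libraries left out the change ran from 0.69 to 1.33 in the deposited fold and from 0.36 to 0.97 in the fragment pileup.

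The gained Bak1 region 27.1 kb upstream (27056096 to 27058083), close to the start of Itpr3, was the only gained one called in both 30 min lists. Its folds were 4.83 and 3.35 at 30 min, 5.58 and 6.62 at 1 h and 5.97 and 7.68 at 2 h. The regions 15.9 and 89.1 kb downstream had folds of 4.1 to 5.12 at 2 h, and they lay in an intron of Ggnbp1 and just upstream of Cuta. CHD4 was lost at a region 45.4 kb downstream (folds of 3.41 and 3.86 at 0 h, none at 2 h). H3K27ac at the Bak1 promoter fell from 117 and 98 fragments at 0 h to 56 and 49 at 2 h, a fragment pileup change of -0.46 (SE 0.16, adjusted p = 0.0373, limma) and of -0.34 in the deposited fold (SE 0.25, adjusted p = 0.548).

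Bax (ENSMUSG00000003873.11, chromosome 7 from 45461697 to 45466898, minus strand) lies in a gene-dense stretch and had 17 Ikaros regions, of which 1 had Bax as the nearest start. At its promoter Ikaros was called in 1 list only (replicate 1 at 2 h, fold 4.42) and CHD4 in none. H3K27ac at the Bax promoter was 62 and 50 fragments at 0 h and 30 and 40 at 2 h, with a fragment pileup change of -0.11 (SE 0.20, adjusted p = 0.72, limma). Away from the promoter, 3 H3K27ac regions passed in the fragment pileup and all were higher with centring, while none passed without it. Relative to the library median, the region 42.2 kb upstream, in an intron of Tulp2, changed by 0.82 (SE 0.18, adjusted p = 0.00222, limma; 0.35 and adjusted p = 0.286 without centring), from 55 and 57 fragments at 0 h to 76 and 60 at 2 h. The others changed by 0.48 at 57.7 kb upstream and by 0.38 at 2.4 kb downstream, next to Ftl1, and without centring these were 0.01 and -0.09.

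Around 62 kb upstream of Bax, in an intron of Plekha4, Ikaros and H3K27ac were lost at overlapping positions. Ikaros there (45529455 to 45529812) had folds of 4.31 and 6.1 at 0 h and 4.52 in replicate 1 at 30 min and no later peak. H3K27ac (45529291 to 45529990) had folds of 7.14 and 4.59 at 0 h, 6.94 and 4.1 at 30 min and 3.92 in replicate 1 at 1 h, and no peak at 2 h. A pair of H3K27ac regions, 56.5 kb upstream and 99.0 kb downstream of Bax, were gained at folds of 3.48 to 4.95.

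Bcl2l11 had 2 gained Ikaros regions, 1 of them the region chosen as new at 2 h. The gene encodes BIM, which binds every anti-apoptotic member (ENSMUSG00000027381.16, chromosome 2 from 128126038 to 128162547, plus strand). The intergenic region 77.3 kb downstream (128203362 to 128204703), the first sequence printed above, had no Ikaros peak at 0 h, a fold of 5.37 in replicate 1 at 30 min, 8.24 and 8.28 at 1 h and 8.05 and 9.13 at 2 h. In fragments these were 19, then 28 and 29, then 30 and 29, against 13 in the weakest peak called at 0 h, where coverage was higher. At 2 h it stood at percentiles 97.8 and 96.3 of the folds of its lists. CHD4 was called at the same place in both 1 h lists (3.51 and 4.28) and in replicate 2 at 2 h (3.81), and in no list at 0 h or 30 min.

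H3K27ac at this place (128203130 to 128205260) was present before induction and called in all 8 lists. It held 33 and 38 fragments at 0 h, 43 and 39 at 30 min, 71 and 43 at 1 h and 54 and 41 at 2 h. All later libraries stood above both 0 h libraries, with replicate 1 the higher from 30 min on. The change was 0.95 in the fragment pileup (SE 0.20, adjusted p = 0.00163, limma). It was 1.04 in the deposited fold (SE 0.31, adjusted p = 0.115, limma), the lowest adjusted p of the 54 regions, and 0.48 without centring (SE 0.26, adjusted p = 0.137, limma).

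**Figure D4:**
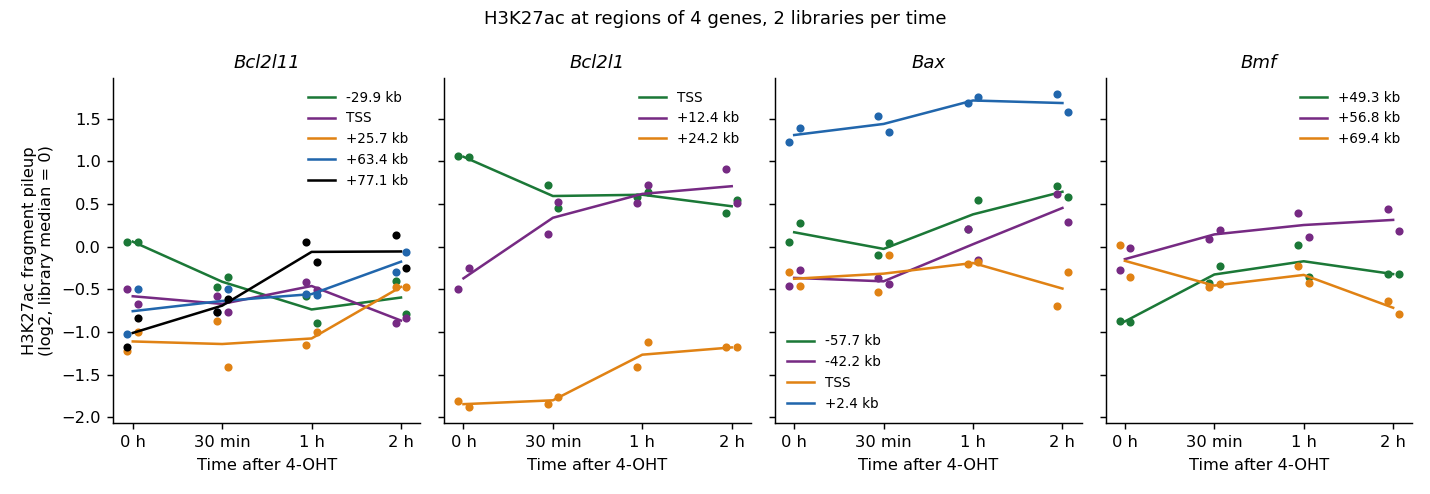
H3K27ac fragment pileup over library coverage (log2, each library's median set to 0) against time after 4-OHT at the promoters (TSS) of Bcl2l11, Bcl2l1 and Bax and at the regions of these genes and of Bmf that passed the fragment pileup test; points are the 2 libraries per time and lines their mean. The Bcl2l11 region 77.1 kb downstream goes from -1.18 and -0.84 at 0 h to 0.14 and -0.25 at 2 h, and the Bcl2l1 promoter from 1.06 and 1.05 to 0.40 and 0.55, all relative to library medians that were themselves lower at 2 h.

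Other Bcl2l11 regions moved both ways relative to the library median. In the centred fragment pileup, H3K27ac was higher by 0.64 in an intron 25.7 kb downstream (adjusted p = 0.0392, limma) and by 0.58 at 63.4 kb downstream (adjusted p = 0.0455, limma), and lower, with a change of -0.65, at 29.9 kb upstream, in an intron of Acoxl (adjusted p = 0.0183, limma). Without centring the first 2 were 0.16 and 0.11 and did not pass (adjusted p = 0.629 and 0.763, limma), and the last was -1.12. Each of those 3 missed the threshold when some single libraries were left out, with highest adjusted p of 0.24, 0.441 and 0.168 (limma). Over the Bcl2l11 start Ikaros was gained as well, with folds of 2.99 in replicate 1 at 1 h and 4.94 and 5.44 at 2 h. The promoter was not free of Ikaros peaks before induction. A neighbouring region 987 bp downstream was called in replicate 1 at every time and never in replicate 2. Its fold was 4.1, with 18 fragments, at 0 h and 3.38 at 2 h. H3K27ac at the promoter did not pass (54 and 43 fragments at 0 h, 26 and 27 at 2 h, fragment pileup change -0.29, SE 0.19, adjusted p = 0.312, limma) with centring, and passed without it at -0.76 (adjusted p = 0.0171, limma).

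Bbc3 (ENSMUSG00000002083.13, chromosome 7 from 16308393 to 16318205, plus strand), a p53 target, had no Ikaros peak at its promoter in any list. H3K27ac there changed sign with the measure and with centring, and passed in neither measure. The deposited fold was 13.82 and 12.03 at 0 h and 6.1 and 6.25 at 2 h, a difference of -0.60 that did not pass (SE 0.26, adjusted p = 0.279, limma). The fragments were 102 and 73 at 0 h and 74 and 60 at 2 h, a change of 0.19 with centring (SE 0.16, adjusted p = 0.427, limma) and of -0.29 without it (adjusted p = 0.377), while the local background in the denominator was 6.22 and 4.72 at 0 h and 11.19 and 8.58 at 2 h. The Ikaros region of highest mean rank, 90.3 kb downstream and just upstream of Zc3h4, had folds of 6.42 and 8.13 at 0 h, 7.29 and 11.74 at 30 min, 13.59 and 12.28 at 1 h and 7.87 and 13.76 at 2 h (0.61, SE 0.36, adjusted p = 0.323, limma). The groups at 0 h and 2 h overlapped there. CHD4 was gained 11.7 kb upstream, at folds of 2.94 and 3.38 at 2 h.

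Pmaip1 (ENSMUSG00000024521.8), which encodes NOXA, an MCL1 antagonist, had neither Ikaros, CHD4 nor H3K27ac within 1 kb of its start in any list. Its regions lay on both sides. The 3 upstream Ikaros regions called in all 8 lists were the only ones of the 16 near the 9 genes to pass in the fragment pileup. At 4.6 kb upstream Ikaros held 16 and 19 fragments at 0 h, 19 and 23 at 30 min, 26 and 29 at 1 h and 24 and 24 at 2 h, a change of 0.81 (SE 0.25, adjusted p = 0.0244, limma). At 10.2 kb upstream the change was 0.79 (adjusted p = 0.0317, limma) and at 19.8 kb upstream 0.67 (adjusted p = 0.0443, limma). In the deposited fold these were 0.61, 0.69 and 0.80, with adjusted p of 0.316, 0.244 and 0.183 by limma.

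None of the 3 Pmaip1 calls held in every fit that left out 1 library, and 0 of them passed without centring (adjusted p 0.0681 to 0.167, limma). Leaving out single libraries gave adjusted p of up to 0.126, 0.451 and 0.234 for the regions 4.6, 10.2 and 19.8 kb upstream. Without centring 0 of the 16 Ikaros regions near the 9 genes passed in the fragment pileup, against 11.3% of all. One more Ikaros region upstream of Pmaip1, 7.4 kb from the start, was gained. It held 16 and 13 fragments at 1 h and 14 and 9 at 2 h, near the weakest peaks called. The 4 H3K27ac regions of Pmaip1 called in all lists did not pass in either measure (fragment pileup changes of -0.09 to 0.23).

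Bmf (ENSMUSG00000040093.15, chromosome 2 from 118528757 to 118549687, minus strand), a BH3-only protein released by loss of attachment, also lacked H3K27ac within 1 kb of its start in all lists. Ikaros was called at the start in both 1 h lists (4.08 and 3.11) and in replicate 2 at 2 h (4.48), so it was not gained by the rule used here. The Ikaros region of highest mean rank, 49.3 kb downstream towards Srp14, had folds of 3.79 and 12.16 at 0 h and 4.22 and 12.16 at 2 h. Replicates differed there by more than times did. H3K27ac at this place held 41 and 37 fragments at 0 h and 39 and 39 at 2 h and changed, relative to the library median, by 0.56 in the fragment pileup (SE 0.19, adjusted p = 0.0372, limma), at 56.8 kb downstream by 0.46 (adjusted p = 0.0487, limma) and at 69.4 kb downstream, in an intron of Srp14, by -0.55 (adjusted p = 0.0399, limma). Without centring these were 0.08, -0.01 and -1.02. CHD4 was gained 57.3 kb downstream, with folds of 3.26 and 3.3 at 2 h.

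Taking the promoters alone, 7 of the 9 genes had H3K27ac within 1 kb of the start in all 8 lists, as had 8624 of 21911 protein-coding genes. A gained Ikaros region lay at 3 of those 7 promoters (Bcl2, Mcl1 and Bcl2l11), against 14.7% of the 8624. This is a count of 3 and was not tested. A neighbouring Ikaros region at the promoter was already called at 0 h in both lists at Mcl1 and in 1 list at Bcl2l11. In the fragment pileup 3 of the 7 promoters were lower (Bcl2, Bcl2l1 and Bak1) and 0 higher, against 5.4% of the 7412 H3K27ac regions tested at promoters of protein-coding genes lower and 8.4% higher. Without centring 4 were lower, Bcl2l11 being the addition, and 0 higher, against 27% of those promoter regions lower. The Bcl2 and Bak1 calls were lost when some single libraries were left out (passing in 5 and 4 of 8 fits, adjusted p by limma up to 0.229 and 0.217). At the 3 promoters with gained Ikaros the changes were -0.52, -0.12 and -0.29, and at the 4 others -0.58, -0.46, -0.11 and 0.19, ranges that overlapped. A CHD4 region lay at 6 of the 9 promoters, called in no more than 1 list at any time, against 21.6% of all protein-coding genes with one in any list. The bases differ, since all 6 had H3K27ac in all 8 lists and the 21.6% counts genes without it too.

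Beyond the 9 genes, 29 other genes of the pathway were read at their starts. H3K27ac was present in both 0 h lists at 20 of them and in both 2 h lists at 20, including all 7 apoptosome and caspase genes, and was absent from every list at Bcl2a1a, Bcl2a1b, Bcl2a1d, Bcl2l10, Bik, Hrk, Xiap and Trp73. The Bcl2a1 genes are near-identical copies, where reads may not map uniquely. Of the 20 tested with limma, 0 passed in the deposited fold and 1 in the fragment pileup. That was Casp8, the initiator caspase of the death receptor pathway, with a change of -0.71 (SE 0.16, adjusted p = 0.00359, limma). Genes with Ikaros gained at the start included Casp8 and Foxo1, a transcription factor that activates Bcl2l11, and Ikaros was lost at Bok. CHD4 was gained at Foxo1 and, by the same rule, lost at Trp53. At Trp53 both lists called it at 0 h and again at 1 h, and neither did at 30 min or 2 h, so the loss was not steady. Over all protein-coding genes 1.83% gained a CHD4 region at the promoter.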

How the data were processed

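ChIP-seq peak lists of 24 libraries (Ikaros, CHD4, H3K27ac; 4 times, 2 replicates) were used, and 8 input libraries had no list of their own. Per the submitters' processing notes and the methods, paired-end reads were aligned to mm10 with Bowtie2 2.4.2, duplicates marked with Picard 2.23.7 and peaks called with MACS2 2.2.7.1, narrow for Ikaros and H3K27ac and broad for CHD4. Per the labels, chromatin was digested by sonication or MNase, and which of them was used for which library is not given in the sources used here. Settings at 30 min and the input behind each list are not given either, and a blacklist is named for the coverage tracks only. Greater depth lets weaker peaks pass. The authors deposited each peak's fold enrichment (a ratio over local background) with its −log10 p-value and −log10 q-value. The score deposited by the authors was not used.

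Coordinates are 1-based (GRCm38), with starts from GENCODE and sequence from the RefSeq copy of that assembly. Peaks were merged at 1 bp of overlap, and a promoter was 1 kb either side of the start. A region's value in a list was its highest fold. Levels were tested with limma 3.58.1 (R 4.3.3, two-sided, empirical Bayes with trend, Benjamini-Hochberg over all regions called in all 8 lists), checked on simulated data. No count model was run, as the lists hold no counts. The fragment pileup at a peak's summit was recovered from fold and p in narrow lists (99.758% to 100% of peaks gave a whole number within 0.001 of the deposited −log10 p). Replicate lists shared at most 0.05% of identical positions. Same-numbered libraries did not deviate together (correlations of -0.047 to 0.176), so replicates were not paired.

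Named regions were those at promoters, Ikaros or CHD4 regions gained or lost, regions called by the test on the fold, and the Ikaros region of each gene with the highest mean rank, with the CHD4 and H3K27ac regions over it. H3K27ac regions gained, lost or called in the fragment pileup were named after their values were seen, as were the 3 Pmaip1 regions that passed and a few others given beside them. Genes, lists and rules were chosen with earlier results of these data known. Hbb-b1, a marker listed for the check of cell type, was not matched in the annotation. Results at a few items are not reported here.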

Additional observations from a re-analysis of the deposited data

How the results depend on the processing

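The counts of regions called over all regions moved with the setting for each target. Ikaros gave 136 calls on the deposited fold, 20 with quantile normalisation and 462 in the fragment pileup. CHD4 gave 4 calls, 0 with quantile normalisation (58 at an unadjusted p under 0.05 by limma) and 1 when a region needed only 1 list of each time. H3K27ac gave 60 calls, 91 with quantile normalisation, 426 without centring, 105 with the width-weighted mean fold and 3189 in the fragment pileup. The share of higher calls for H3K27ac went from 27 of 60 to 5 of 426 without centring. Leaving out single libraries gave 35 to 136 calls for Ikaros, 1 to 7 for CHD4 and 0 to 32 for H3K27ac, with 0 when any library at 0 h or 2 h was left out (1638 to 1929 at an unadjusted p under 0.05 by limma).

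Near the 9 genes, gained Ikaros regions numbered 7 in a 50 kb window (11.67%, against 11.989% of all), and lost ones 0 there (against 3.592%) and 4 with a −log10 q of at least 3 (5.56%, against 4.656%). Gained CHD4 regions were 1 in a 50 kb window (2.78%, against 5.3%) and 0 with that q (against 1.713%), and lost ones 0 with that q (against 2.125%) and 2 with lists of equal length (7.14%, against 5.632%). In a 50 kb window H3K27ac gained 2 regions (2.78%, against 3.727%) and lost 1 (1.39%, against 2.778%). With single libraries left out, gained regions were 12 to 27 for Ikaros, 3 to 17 for CHD4 and 4 to 21 for H3K27ac, and lost ones 2 to 9, 1 to 5 and 2 to 6. In the same settings 14.843% to 26.144% of all Ikaros regions were gained, 5.945% to 34.015% of all CHD4 regions and 4.192% to 24.829% of all H3K27ac regions, and 4.971% to 8.342%, 1.784% to 10.652% and 3.849% to 6.698% were lost. These rise because 1 list then decides a time, and 17 gained CHD4 regions came without replicate 1 at 2 h and 21 gained H3K27ac regions without replicate 2 at 2 h.

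The fragment pileup and its alternatives were chosen after seeing the data. Uncentred, 18 of the 54 H3K27ac changes, all positive with centring, turned sign. Of these 2 had passed the test, Bax 2.4 kb downstream (-0.09) and Bmf 56.8 kb downstream (-0.01). For the other moves the cause was not tested. With the replicate number as a block, the calls were 168 for Ikaros, 5 for CHD4 and 48 for H3K27ac. The numbers do not pair the libraries, and the block gave 5 calls near the 9 genes for Ikaros and 14 for H3K27ac in the fragment pileup, against 3 and 15, with 24.1% and 22.6% of all regions called under the block. The weakest Ikaros peaks called held 9 to 13 fragments.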

Other observations

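By annotation, 47 of the 94 Ikaros regions near the 9 genes were intergenic, 32 lay in introns, 7 in a UTR, 5 in coding sequence and 3 in other exons. The CHD4 regions were 27 intergenic, 22 intronic and 4 in a UTR. H3K27ac lay in introns at 51 regions, between genes at 40 and in a UTR at 14.

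Regions near the 9 genes were called in all lists more often than regions as a whole: 17% against 9.7% for Ikaros, 11.3% against 4.7% for CHD4 and 48.2% against 37.4% for H3K27ac. These shares were not tested. Those called in 1 list only were 35.1% against 35.1%, 35.8% against 49.6% and 30.4% against 36.4%.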
